A study of Mus musculus with 6 samples.

Results

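The genes described here are 10 regulators of mRNA decay, the tristetraprolin genes Zfp36, Zfp36l1 and Zfp36l2, the Regnase-1 gene Zc3h12a, the Roquin genes Rc3h1 and Rc3h2, and the BTG and TOB genes Btg1, Btg2, Tob1 and Tob2. They were chosen by name, and each was represented by its brightest probe set annotated with that symbol alone. All 10 were found among the 22180 genes that had such a probe set, and all 10 lay above the level filter that left 12212 genes for testing. The cells were BV2, a mouse microglial line made immortal in culture, with the labelled genotype WT, and their RNA was measured on 6 whole-transcript arrays. In the group labelled Tel+GW+LPS, 3 samples received telmisartan and GW9662 for 2 h, followed by 1 h of bacterial lipopolysaccharide (LPS). In the group labelled Tel+LPS, 3 samples received telmisartan for 2 h, followed by 1 h of LPS. Telmisartan blocks the angiotensin II type 1 receptor and also partly activates PPARG, a nuclear receptor for lipids that GW9662 blocks by binding covalently, while LPS acts through TLR4. Telmisartan and LPS were given in both groups, so the effect of neither is measured here, and the labels give no doses. Separate cultures are not stated for the samples, which the labels call independent, so p-values measure only their spread, and part of it may be technical.

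After LPS, macrophages and microglia make cytokine mRNAs that are meant to be short-lived, and the proteins described here shorten their lives. Tristetraprolin and its relatives bind AU-rich elements in the 3′ untranslated region and bring in the CCR4-NOT complex, which removes the poly(A) tail. Regnase-1 is an endonuclease that cuts stem-loops in transcripts such as that of IL-6. Roquin proteins bind similar stem-loops and also recruit CCR4-NOT, and BTG and TOB proteins bind the deadenylase subunits of that complex and restrain proliferation. Several of these genes, among them Zfp36, Zc3h12a and Btg2, are themselves early response genes, and many of the proteins are controlled after translation, which arrays do not show.

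None of the 10 transcripts passed the test with GW9662, as against 0.0409% of all genes tested. Groups that did not overlap were seen in 2 of the 10 and in 9.37% of all genes. Btg2 came nearest to passing, with a log2 level of 7.53 ± 0.06 in Tel+GW+LPS and 7.74 ± 0.05 in Tel+LPS (SD, n = 3 each), 0.86-fold, and its groups did not overlap. Nor did those of Tob2, in the opposite direction, at 8.17 ± 0.09 in Tel+GW+LPS and 8.04 ± 0.04 in Tel+LPS. Zfp36, the namesake of the tristetraprolin family, differed by -0.04 ± 0.09 (log2, SE), and Zc3h12a by 0.08 ± 0.09. Transcripts known to be destabilised by tristetraprolin had a median difference of -0.24, beside -0.02 over all genes. Known targets of Regnase-1 and Roquin had a median of -0.15, and none of either list passed. The lists share genes, and their cytokine and chemokine genes were known from earlier results on these arrays to be lower with GW9662. The medians are therefore no independent support for a direction.

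The promoters of 4 of the genes are shown, Btg2 and Tob2 because their groups did not overlap, and Zfp36 and Zc3h12a as the early response genes whose differences were small. RefSeq sequences on GRCm38.p6 were at hand for 9 of the 10 genes, all but Zfp36l2, and each window is the 250 bases before the annotated start, 5′ to 3′ on the gene's strand. Btg2 lies at chr1:134079156-134079405, minus strand, Tob2 at chr15:81858327-81858576, minus strand, Zfp36 at chr7:28379229-28379478, minus strand, and Zc3h12a at chr4:125127882-125128131, minus strand. Capitals mark every motif match found on either strand.
Btg2: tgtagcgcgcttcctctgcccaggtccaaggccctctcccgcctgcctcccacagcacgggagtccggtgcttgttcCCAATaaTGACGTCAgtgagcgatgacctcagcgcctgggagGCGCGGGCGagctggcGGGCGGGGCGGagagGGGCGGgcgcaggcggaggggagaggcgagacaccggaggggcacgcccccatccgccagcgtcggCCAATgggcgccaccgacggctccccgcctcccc
Tob2: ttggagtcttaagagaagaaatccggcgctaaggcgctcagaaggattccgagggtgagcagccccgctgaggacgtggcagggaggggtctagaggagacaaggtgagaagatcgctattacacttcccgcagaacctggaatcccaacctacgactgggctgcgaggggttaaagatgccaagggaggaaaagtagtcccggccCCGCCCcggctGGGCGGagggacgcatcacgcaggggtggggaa
Zfp36: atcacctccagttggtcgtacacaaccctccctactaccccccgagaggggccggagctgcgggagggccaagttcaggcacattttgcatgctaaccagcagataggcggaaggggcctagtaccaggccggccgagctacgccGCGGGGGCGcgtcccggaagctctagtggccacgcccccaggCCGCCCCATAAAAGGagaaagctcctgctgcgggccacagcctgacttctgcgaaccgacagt
Zc3h12a: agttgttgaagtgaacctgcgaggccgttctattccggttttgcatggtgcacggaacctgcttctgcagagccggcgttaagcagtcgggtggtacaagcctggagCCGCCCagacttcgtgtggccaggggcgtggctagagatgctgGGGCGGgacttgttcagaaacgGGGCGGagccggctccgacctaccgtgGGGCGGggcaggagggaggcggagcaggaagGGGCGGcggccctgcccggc
The motifs searched on both strands were the TATA box written TATAAA, the CCAAT box, the GC box written GGGCGG, the cyclic AMP response element written TGACGTCA, the AP-1 site written TGANTCA, the E-box written CACGTG, the EGR site written GCGNGGGCG and the ETS core written CCGGAAGT. The PPAR direct repeat with a spacer of 1 base, the NF-kB consensus and the CArG box were searched by their usual consensus.

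Btg2 was the only one of the 9 windows with TGACGTCA, at bases -166 to -159 counted from the start, a motif in 1.55% of the 32851 promoter windows of the same length. The same window held 2 CCAAT matches, an EGR match and 3 GC boxes, of which a pair shares the base at -110. Zfp36 was the only one with a CArG box, the element bound by serum response factor, at -58 to -49, against 1.47% of all windows. That CArG box shares its first base with a GC box, and the window also held an EGR match, which 4.7% of all windows hold. The Zc3h12a window held 5 GC boxes and that of Tob2 held 2, and no other motif searched was found in either. GC boxes were found in 7 of the 9 windows and in 32.7% of all windows, and CCAAT in 4 of the 9 and in 33.8% of all. The share of G and C bases was 48.4% for Zfp36l1 and 60.4 to 74.0% for the others of the 9. Its median over all windows was 52.4%, and the part of this in the GC box matches was not tested. TATAAA was found before Zfp36l1, Btg1 and Tob1 and in 12.4% of all windows. In Zfp36l1 its last base is shared with a CCAAT match on the other strand. An AP-1 match stood before Zfp36l1 and Rc3h1 (6.75% of all windows). The NF-kB consensus, the PPAR direct repeat, the E-box and the ETS core matched none of the 9 windows, and 3.9%, 0.0335%, 6.02% and 2.88% of all windows. These are matches of letters, and nothing here measured binding.

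The cell type was checked against markers. Of 17 microglia and macrophage markers with a probe set of their own, 14 lay above the level filter of 6.15, among them Csf1r, Itgam and Cd68, while P2ry12, Tmem119 and Sall1, which mark resting microglia in the brain, lay below it. The mean of that list was 8.98 to 9.02 on Tel+GW+LPS arrays and 8.97 to 9.18 on Tel+LPS arrays. Of the astrocyte, neuron, oligodendrocyte, fibroblast and lymphocyte markers, 3 of 8, 2 of 9, 3 of 7, 3 of 7 and 2 of 8 lay above it. These were Gfap, Aldh1l1 and Aldoc for astrocytes, Rbfox3 and Syn1 for neurons, Mbp, Mog and Cnp for oligodendrocytes, Col1a1, Col3a1 and Acta2 for fibroblasts, and Nkg7 and Ighm for lymphocytes. The other 26 markers of these lists with a probe set of their own lay below it. The mean of these 5 lists ranged from 5.69 to 6.33 on Tel+GW+LPS arrays and from 5.80 to 6.29 on Tel+LPS arrays. None of the markers above the filter passed the test. Those with the smallest p were the microglial genes Aif1 (-0.20, groups that did not overlap) and C1qb (-0.29), and from the other lists Aldh1l1 (0.06), Aldoc (0.03), Syn1 (-0.12), Rbfox3 (-0.09), Mbp (-0.10), Cnp (0.06), Col3a1 (0.07), Acta2 (0.05), Ighm (-0.34) and Nkg7 (-0.12), as log2 differences of Tel+GW+LPS minus Tel+LPS with an SE of 0.06 to 0.18. In the direction of Aif1, 5.36% of all genes had groups that did not overlap. With 1 array left out C1qb lay between -0.42 and, without replicate 2 of Tel+LPS, -0.15. Ighm lay between -0.53 and -0.15, without replicates 3 and 2 of Tel+GW+LPS in turn. Syn1 then ranged from -0.18 to -0.05, Mbp from -0.13 to -0.05 and Nkg7 from -0.16 to -0.08. The signs of Aldh1l1, Aldoc, Rbfox3, Cnp, Col3a1 and Acta2 turned under some alternatives. Correlations between arrays were 0.990 to 0.996 over the genes tested. Replicate 2 of Tel+GW+LPS and replicate 3 of Tel+LPS stood apart on the first principal component (42.8% of the variance), where they scored 7.55 and 14.6 and the other 4 arrays -8.15 to -0.98. Values without those 2 arrays are given below where they turn the sign of a regulator's difference or move it by over 1.5 times, and the part of these arrays in the differences was not tested.

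**Figure D1:**
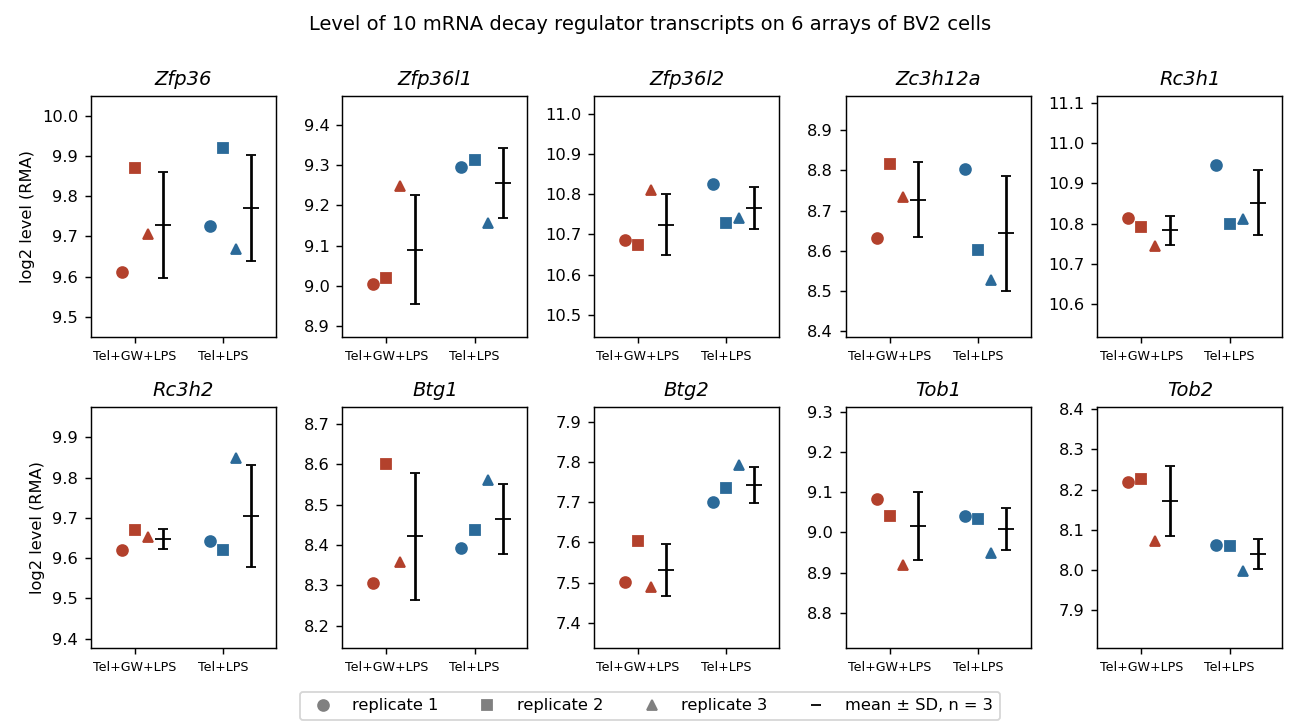
Log2 level (RMA) of the 10 transcripts on each array, Tel+GW+LPS at the left and Tel+LPS at the right of each panel, with the replicate as symbol, and the mean ± SD (n = 3) in black. Every panel spans the same range of log2 units. The 3 Btg2 values with GW9662 (7.49 to 7.60) all lie under the 3 without it (7.70 to 7.79), and in 8 panels the groups overlap.

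The tristetraprolin genes come first. Zfp36 encodes tristetraprolin itself, whose loss in mice causes inflammation driven by TNF. Its log2 level was 9.61, 9.87 and 9.71 on the Tel+GW+LPS arrays and 9.73, 9.92 and 9.67 on the Tel+LPS arrays (probe set 17488458, replicates 1 to 3). The groups overlapped, replicate 2 was the highest array of each group, and the difference was -0.04 ± 0.09 (SE) with a 95% interval from -0.26 to 0.17. Without the 2 arrays that stood apart it was -0.16, and it took the opposite sign without replicate 1 of Tel+GW+LPS (0.02) or replicate 2 of Tel+LPS (0.03).

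Zfp36l1, a paralog with the same kind of zinc fingers that acts with Zfp36l2 in lymphocyte development in mice, had 9.004, 9.020 and 9.247 in Tel+GW+LPS and 9.297, 9.314 and 9.156 in Tel+LPS (probe set 17282216). Replicate 3 of each group crossed over, so the groups overlapped, while the other Tel+GW+LPS arrays lay below all 3 Tel+LPS arrays. The difference of -0.16 ± 0.09 (interval -0.36 to 0.03) was negative in all 17 alternative settings, between -0.24 and -0.11. A second, dim Zfp36l1 probe set at a mean of 4.10, under the level filter, differed by -0.05. Zfp36l2, the other paralog, had 10.69, 10.67 and 10.81 in Tel+GW+LPS and 10.83, 10.73 and 10.74 in Tel+LPS (probe set 17347680). Its groups overlapped, and it differed by -0.04 ± 0.07 (interval -0.20 to 0.11). That value was -0.012 without replicate 1 of Tel+LPS and -0.086 without replicate 3 of Tel+GW+LPS. All 3 genes of the family had a negative difference over the 6 arrays, Zfp36 with the exceptions given above, as did 58.8% of all genes tested, whose median difference was -0.02.

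Zc3h12a encodes Regnase-1, which is destroyed early after TLR stimulation and then made again. It had 8.63, 8.82 and 8.73 in Tel+GW+LPS and 8.80, 8.60 and 8.53 in Tel+LPS (probe set 17429933). The spread within each group was larger than the difference of 0.08 ± 0.09 (interval -0.12 to 0.29), and the groups overlapped since replicate 1 was the lowest array of Tel+GW+LPS and the highest of Tel+LPS. Without the 2 arrays that stood apart the difference was -0.02, and with array weights -0.07. Leaving out 1 array gave 0.025 (without replicate 3 of Tel+LPS) to 0.163 (without replicate 1 of Tel+LPS), and 0.039 without replicate 2 and 0.132 without replicate 1 of Tel+GW+LPS.

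Rc3h1 and Rc3h2 encode Roquin-1 and Roquin-2, which overlap in function in T cells of mice. Rc3h1 had 10.82, 10.79 and 10.74 in Tel+GW+LPS and 10.95, 10.80 and 10.81 in Tel+LPS (probe set 17218620), and differed by -0.07 ± 0.07 (interval -0.22 to 0.09). Replicate 1 of Tel+LPS lay above the other 5 arrays, which were within a narrow band. Without it the Rc3h1 difference was -0.022, and with array weights -0.140. Rc3h2 had 9.62, 9.67 and 9.65 in Tel+GW+LPS and 9.64, 9.62 and 9.85 in Tel+LPS (probe set 17384587). Replicate 3 of Tel+LPS lay above the other 5 arrays. The difference was -0.06 ± 0.08 (interval -0.23 to 0.12), without that array it was 0.02, and without both arrays that stood apart 0.0041.

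Among the BTG and TOB genes, Btg2 and Tob2 separated the groups and Btg1 and Tob1 did not. Btg2, a target gene of p53 and an early response gene whose product activates deadenylation, had 7.50, 7.60 and 7.49 in Tel+GW+LPS and 7.70, 7.73 and 7.79 in Tel+LPS (probe set 17227089). All 3 arrays with GW9662 lay below all 3 without it. The difference was -0.21 ± 0.07 (interval -0.36 to -0.06), 0.86-fold, at an adjusted p of 0.949 in limma over all 12212 genes. It ranked 149 among them by p and was the 1 regulator with an unadjusted p under 0.05 (0.0116), which 4.45% of all genes had. Larger differences in size were seen in 3.76% of all genes. With any 1 array left out the Btg2 difference was -0.25 to -0.19, and without the 2 arrays that stood apart it was -0.22.

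Btg1, its close relative, had 8.31, 8.60 and 8.36 in Tel+GW+LPS and 8.39, 8.44 and 8.56 in Tel+LPS (probe set 17236787). Its highest array in each group was the one that stood apart on the principal component, and the groups overlapped, with a difference of -0.04 ± 0.09 (interval -0.25 to 0.17). Without both of those arrays the difference was -0.08, and leaving out replicate 1 of Tel+GW+LPS or replicate 3 of Tel+LPS turned its sign (0.02 and 0.0064).

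Tob2, which links the deadenylase to poly(A)-binding protein as Tob1 does, had 8.217, 8.225 and 8.072 in Tel+GW+LPS and 8.063, 8.059 and 7.996 in Tel+LPS (probe set 17319529). The groups were separated by little, since replicate 3 of Tel+GW+LPS lay just above the highest array without GW9662. Its difference was 0.13 ± 0.07 (interval -0.03 to 0.29), 1.10-fold, at an adjusted p of 0.994 in limma, and it was positive in all 17 alternatives, between 0.08 and 0.18. The lowest of these, 0.08, was that without both arrays that stood apart. Tob1 had 9.08, 9.04 and 8.92 in Tel+GW+LPS and 9.04, 9.03 and 8.95 in Tel+LPS (probe set 17255210). With a difference of 0.0068 ± 0.07 (interval -0.15 to 0.17) it overlapped throughout, and replicate 3 was the lowest array of both groups. Without both arrays that stood apart its difference was -0.04, and with 1 array left out it took either sign (-0.027 to 0.054). Whether Btg2 and Tob2 differed from each other in their response was not tested.

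**Figure D2:**
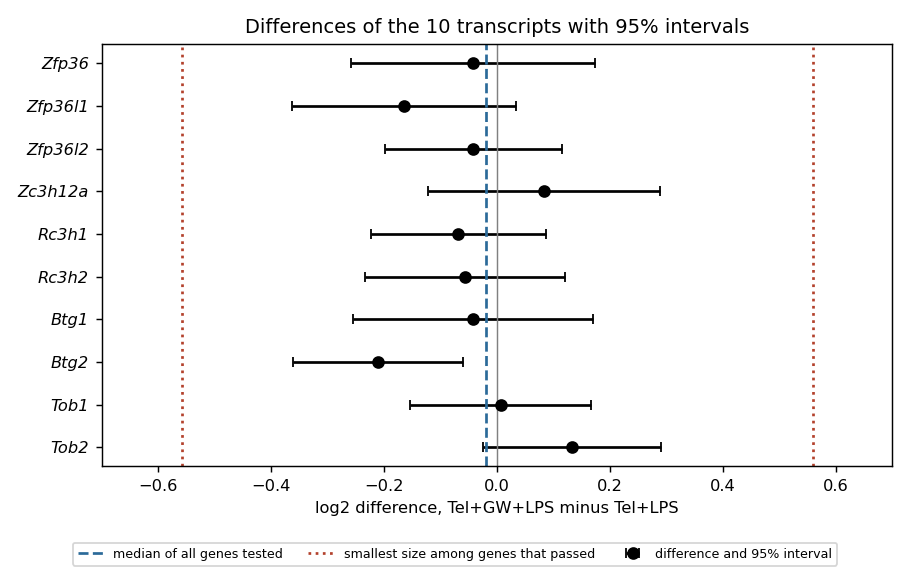
Log2 difference (Tel+GW+LPS minus Tel+LPS) of each transcript with its 95% interval from limma (6 arrays), the median of all genes tested at -0.02 (dashed), and the smallest size among the genes that passed, 0.56 (dotted, both signs). The interval of Btg2 alone leaves out 0, and no interval reaches the dotted lines.

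Of the 10 transcripts, 7 had a negative and 3 a positive difference, and 0 passed. Over all 12212 genes tested 0.0409% passed (0.0246% higher and 0.0164% lower with GW9662). Groups that did not overlap were seen in 2 of the 10, 1 in each direction, against 9.37% of all genes (5.36% lower and 4.01% higher with GW9662). The median size of the differences was 0.063 for the 10 and 0.059 over all genes. Adjusted p in limma ran from 0.949 to 0.999, and 3 against 3 arrays cannot give an exact two-sided permutation p under 0.1 for a single gene. The 95% intervals, each for 1 gene and not adjusted for their number, show what size of difference these arrays leave room for. The bound farthest from 0 was -0.36, for Zfp36l1, which is a 1.29-fold difference. In bulk RNA a lower level in each cell and fewer cells with that transcript cannot be told apart.

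Arrays differed in how many of the 10 transcripts they held at the extremes. Replicates 1 and 3 of Tel+GW+LPS were the lowest array for 4 and 3 of the genes, and replicate 2 for 1. On the Tel+LPS side, replicates 1 and 2 were the lowest for 0 genes and replicate 3 for 2. Replicates 1, 2 and 3 of Tel+GW+LPS were the highest array for 1, 3 and 0 genes, and each Tel+LPS array for 2. The median deviation of the 10 genes from their own means over the arrays was -0.06, 0.01 and -0.04 on the Tel+GW+LPS arrays and 0.05, -0.01 and -0.01 on the Tel+LPS arrays. These overlap, since replicate 2 of Tel+GW+LPS lay above 2 of the 3 arrays without GW9662.

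**Figure D3:**
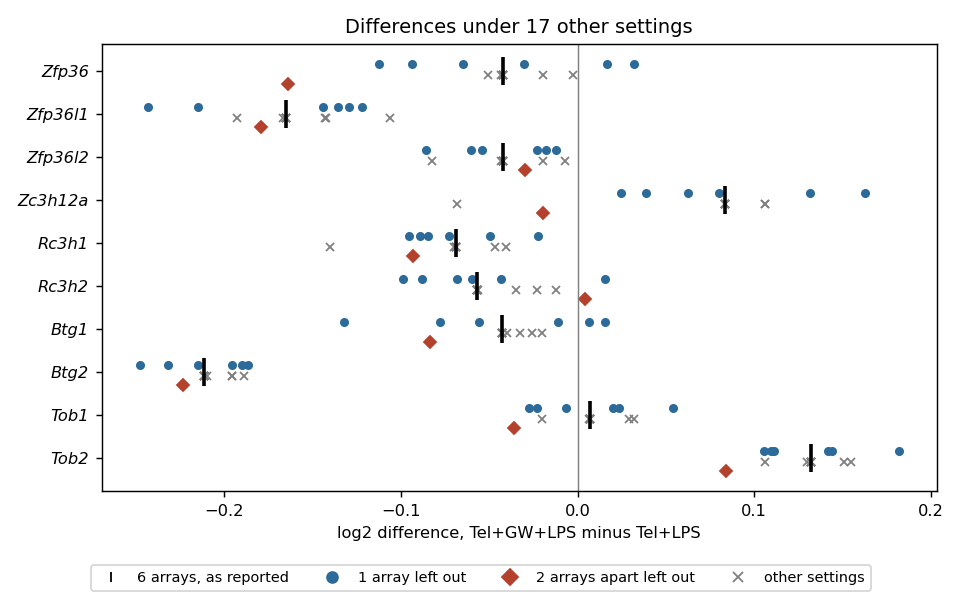
Log2 difference (Tel+GW+LPS minus Tel+LPS) of each transcript over all 6 arrays (black bar), with 1 array left out (blue circles), without the 2 arrays that stood apart (red diamonds) and under the other settings (grey crosses). Btg2 stays between -0.25 and -0.19 and Tob2 between 0.08 and 0.18, while Zfp36, Zc3h12a, Rc3h2, Btg1 and Tob1 have points on both sides of 0.

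Across the 6 arrays, the genes whose pattern was most like that of Btg2 among the 12202 others tested were Lacc1 (Pearson r = 0.993), Rai14 (r = 0.993) and Slc15a3 (r = 0.990). Their own differences were -0.25 ± 0.07, -0.15 ± 0.06 and -0.18 ± 0.06, and none passed (adjusted p = 0.913, 0.994 and 0.989 in limma). For Tob2 they were Spcs1 (r = 0.991), Ubn1 (r = 0.982) and D230025D16Rik (r = 0.980), with differences of 0.05 ± 0.06, 0.12 ± 0.07 and 0.06 ± 0.06. In all, 215 genes had an r over 0.9 with Btg2 and 58 with Tob2. These are the highest of many correlations over 6 arrays that share 1 normalization, and they describe likeness only.

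The machinery that the regulators recruit showed differences of both signs. Of 17 tested subunits and partners of the CCR4-NOT and PAN deadenylases, 7 were positive and 10 negative with a median of -0.03, and 0 passed. Cnot4, which encodes a ubiquitin ligase, differed by -0.13 ± 0.07 and Pan3, which anchors the PAN2 nuclease, by -0.11 ± 0.07. Of the paired deadenylase subunits that BTG and TOB proteins bind, Cnot7 differed by -0.08 ± 0.06 and Cnot8 by 0.07 ± 0.06. Groups that did not overlap were seen in 3 of the 17, Cnot4, Pan3 and Cnot7. All were lower with GW9662, against 5.36% of all genes in that direction. Cnot1 and Cnot3 were not analysed here. Decapping and 5′ decay genes gave 6 positive and 11 negative of 17, a median of -0.05 and 0 calls. The decapping enzyme gene Dcp2 differed by -0.19 ± 0.11 and Pnrc1, whose product binds the decapping complex, by 0.11 ± 0.07. Only Pnrc1 in that list had groups that did not overlap, higher with GW9662, against 4.01% of all genes in that direction. For the RNA exosome, the 3′ to 5′ nuclease, 5 of 13 were positive and 8 negative at a median of -0.04, 0 passed, and Exosc8 and the helicase gene Mtrex differed by -0.11 and -0.10. Single arrays moved several of these values by over 1.5 times. Without replicate 3 of Tel+LPS, Dcp2 was -0.099 and Mtrex -0.037, and without replicate 1 of Tel+GW+LPS Dcp2 was -0.115. Without replicate 2 of Tel+LPS, Mtrex was -0.158 and Pnrc1 0.072. Without replicate 1 of Tel+LPS, Exosc8 was -0.067, and Cnot4 was -0.078 without replicate 2 of Tel+GW+LPS. Pan3 stayed within that factor, between -0.150 and -0.075 with 1 array left out.

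Among 14 genes for other RNA-binding proteins, 3 were positive and 11 negative, with a median of -0.05, and 0 passed. The list joins binders of AU-rich elements or stem-loops with others such as Pum2, Upf1 and Ybx1. Arid5a, whose product protects Il6 mRNA from Regnase-1, had 8.20, 8.13 and 8.14 in Tel+GW+LPS and 7.94, 7.92 and 7.78 in Tel+LPS. Its 3 arrays with GW9662 lay above all 3 without it, and the difference of 0.28 ± 0.07 (interval 0.12 to 0.44) did not pass (adjusted p = 0.647 in limma). Left-out arrays moved it between 0.23 and 0.31. Zc3h12c, a relative of Regnase-1, differed by -0.09 ± 0.06, and Elavl1, which encodes the stabilising protein HuR, by -0.01 ± 0.06. Upf1, the helicase that acts with Regnase-1, had groups that did not overlap but differed by 0.05 ± 0.06. In all, 2 of the 14 had such groups, both higher with GW9662, against 4.01% of all genes in that direction. The kinases p38 and MK2 inactivate tristetraprolin by phosphorylation, which lets 14-3-3 proteins bind. Of 15 genes of this control, 7 were positive and 8 negative, with a median of -0.0021 and 0 calls. In 1 of the 15 the groups did not overlap, lower with GW9662, against 5.36% of all genes in that direction. The smallest p were those of the p38 gene Mapk11 (-0.19 ± 0.12) and of Map2k6, a kinase gene upstream of p38 (-0.11 ± 0.09). With 1 array left out Mapk11 ranged from -0.296 (without replicate 3 of Tel+LPS) to -0.092 (without replicate 2 of Tel+GW+LPS), and it was -0.110 without replicate 2 of Tel+LPS. Map2k6 ranged from -0.165 (without replicate 1 of Tel+GW+LPS) to -0.025 (without replicate 3 of Tel+GW+LPS). Mapkapk2, the MK2 gene, differed by -0.03 ± 0.07. The median of this list was 0.020 with median centring and 0.027 with repeated quantile normalization. It was also positive without replicate 2 of Tel+GW+LPS (0.0077) and without replicate 1 of Tel+LPS (0.022).

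The target transcripts of these proteins are described next. Of 17 listed targets of tristetraprolin, 11 lay above the level filter, and 10 of these were negative, with a median of -0.24 against -0.02 over all genes. None passed, 4 had groups that did not overlap, all lower with GW9662, and 5.36% of all genes did so in that direction. Ccl2, a monocyte chemokine gene, had 10.24, 10.77 and 10.59 in Tel+GW+LPS and 11.04, 11.25 and 11.04 in Tel+LPS, a difference of -0.58 ± 0.13 (adjusted p = 0.581 in limma). Every array with GW9662 lay below every array without it, as also for Ccl4 (-0.38 ± 0.09, adjusted p = 0.647) and for Il1b (-0.61 ± 0.20, adjusted p = 0.949). Tnf, the best-studied target, had 12.48, 12.50 and 12.47 in Tel+GW+LPS and 12.71, 12.83 and 12.62 in Tel+LPS, a difference of -0.24 ± 0.07 (adjusted p = 0.947 in limma) with groups that did not overlap.

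Listed targets of Regnase-1 and Roquin, several of them targets of tristetraprolin too, gave 9 negative of 10 tested, a median of -0.15 and 0 calls. Nfkbiz, which encodes an inducible nuclear partner of NF-kB, had 9.53, 9.90 and 9.70 in Tel+GW+LPS and 9.95, 9.93 and 10.16 in Tel+LPS, a difference of -0.31 ± 0.11 (adjusted p = 0.987 in limma). Its groups did not overlap, nor did those of Tnf, which is on both target lists and was counted above. Both genes were lower with GW9662, against 5.36% of all genes in that direction. Il6 differed by -0.45 ± 0.20 and Nfkbid by 0.01 ± 0.08. The median of the tristetraprolin targets stayed negative in all 17 alternatives (-0.31 to -0.08), as did that of the Regnase-1 and Roquin targets (-0.21 to -0.07), with 0 calls in each. The smallest medians in size, -0.08 and -0.07, came with no level filter, which brought the lists to 17 and 16 genes. These cytokine and chemokine genes were known from earlier results on these arrays to be lower with GW9662, so the medians are no independent support for a direction. Of 11 housekeeping genes, 7 were negative, with a median of -0.0044 (0.018 with median centring and 0.0091 with repeated quantile normalization), and 0 passed. In 1 of the 11 the groups did not overlap, lower with GW9662, against 5.36% of all genes in that direction. The housekeeping genes with the smallest p were Hprt at -0.18 ± 0.08 (-0.12 without replicate 3 of Tel+LPS) and Tbp at -0.08 ± 0.06 (-0.05 without replicate 3 of Tel+GW+LPS).

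**Figure D4:**
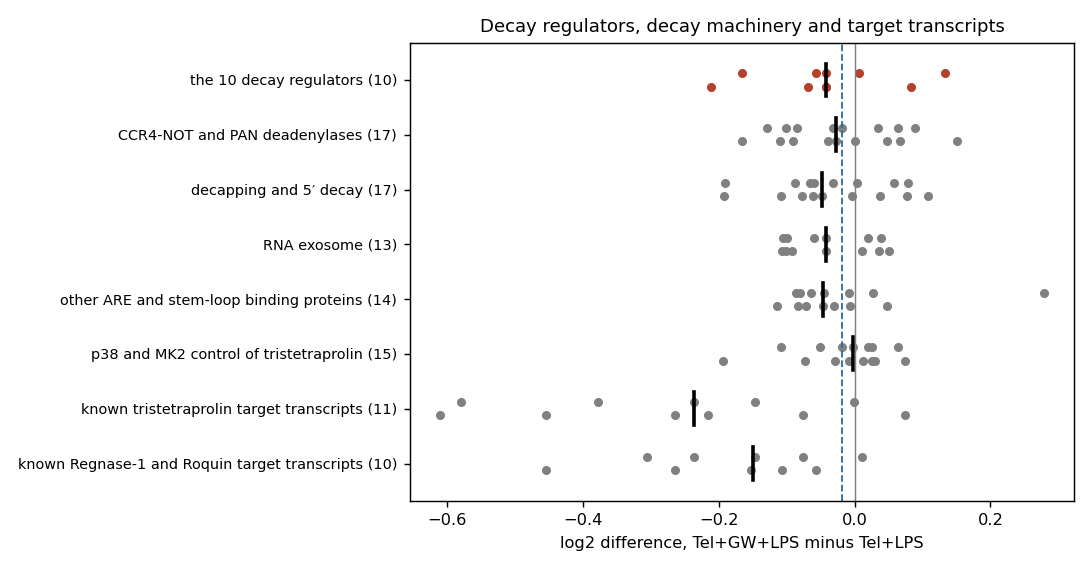
Log2 difference (Tel+GW+LPS minus Tel+LPS) of each tested gene (points) in the 10 decay regulators (red) and in lists of decay machinery and target transcripts (grey), with the number of genes tested in brackets, list medians as black bars and the median of all genes as a dashed line. The 2 target lists have medians of -0.24 and -0.15, and those of the other 6 rows lie between -0.05 and -0.0021, the value of the p38 list, which is positive after either rescaling.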

How the data were processed

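Log2 expression values were deposited by the authors for 6 arrays (2 groups of 3). The submitters' processing notes name RMA (robust multi-array averaging) and Affymetrix Expression Console. Per the file headers, Affymetrix Power Tools 1.4.1.46 corrected the background, normalized quantiles over the 6 arrays and summarised probes by median polish. Quantile normalization hides a change shared by most transcripts. Headers and array names point to MoGene-2_0-st, and the labelling protocol to an older design. The main table has 5 decimals. A deposited copy rounded to 2 decimals (largest gap 0.005) served as an alternative.

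Probe sets were named through the platform annotation. Of 41345, 23521 carried 1 symbol, 1820 several and 16004 none in that table, and only those with 1 symbol were used. The brightest probe set stood for each gene, and genes with a mean level of at least 6.15 (the median over probe sets) were tested. The test was that of limma 3.58.1 (R 4.3.3, functions lmFit and eBayes) with 1 term for the group, and p-values were adjusted by Benjamini-Hochberg over the 12212 genes (threshold 0.05). Named are all 10 regulators, for each list the 2 genes with the smallest p (none passed), and the 3 genes most like each regulator whose groups did not overlap. Cnot7, Cnot8, Elavl1, Upf1, Mapkapk2, Il1b, Il6, Nfkbid and the markers named only for their level were picked after their values were seen. The regulators and the 14 lists were chosen with earlier results of these data known, and 177 of 188 listed entries matched the annotation. Scripts were tested on simulated data. The number of arrays limits the precision.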

Additional observations from a re-analysis of the deposited data

How the results depend on the processing

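In all 17 alternatives 0 of the 10 regulators passed, and their median difference of -0.04 stayed between -0.07 and -0.02, negative in each. Btg2, Zfp36l1, Zfp36l2, Rc3h1 and Tob2 kept their sign throughout, and the adjusted p of Btg2 ran from 0.144 (array weights) to 0.99989. The signs of Zfp36, Zc3h12a, Rc3h2, Btg1 and Tob1 turned in some, the largest of these differences being 0.08, for Zc3h12a. Zfp36l2 (-0.04) and Rc3h1 (-0.07) kept their signs though their differences were smaller in size than that. Zc3h12a was -0.069 and Tob1 -0.020 with array weights, and without both arrays that stood apart Zc3h12a was -0.020, Rc3h2 0.0041 and Tob1 -0.036. With 1 array left out, Zfp36 ranged from -0.113 to 0.032, Zc3h12a from 0.025 to 0.163, Rc3h2 from -0.099 to 0.015, Btg1 from -0.132 to 0.015 and Tob1 from -0.027 to 0.054. The cause was not tested. Neither rescaling turned the sign of a regulator. Each moved the median of all genes by 0.02, which took it to 0.0037 with median centring and 0.0014 with repeated quantile normalization, and turned the sign of the medians of the p38 and housekeeping lists.

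The number of genes passing, 3 higher and 2 lower, moved more. It was 0 higher and 1 lower with no level filter, 5 lower at a mean level of at least 7, 7 higher and 9 lower with median centring, 6 lower with repeated quantile normalization, 27 higher and 22 lower with array weights, 6 higher and 7 lower with a variance trend, and 6 and 6 with trend and robust moderation. With the replicate number as a block, no gene passed (0 higher and 0 lower in limma, 379 at an unadjusted p under 0.05), and none without both arrays that stood apart (0 and 0, with 944). With 1 array left out it was 0 higher and 0 to 2 lower, with 368 to 830 genes at an unadjusted p under 0.05. The block changed no call among the regulators. The labels do not say what the replicate number marks, and the deviations of same-numbered arrays from their group means correlated at 0.29, -0.45 and -0.12, so the numbers were not taken to pair the samples. Of the 3 Tel+GW+LPS arrays, only replicate 1 correlated best with its own number.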
